A study of Mus musculus with 12 samples.

Results

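The genes described here are 40 presynaptic genes of the synaptic vesicle and the active zone, taken by name from the 36131 genes of the count table of mouse retina. They are Syn1, Syn2, Syn3, Syp, Synpr, Syngr1, Syngr3, Sv2a, Sv2b and Sv2c of the vesicle, the synaptotagmins Syt1, Syt2, Syt4 and Syt11 with Rph3a and Doc2b, the SNARE and complexin genes Snap25, Vamp1, Vamp2, Stx1a, Stx3, Cplx1, Cplx2, Cplx3, Cplx4, Nsf and Napb, the active zone genes Rims1, Rims2, Rimbp2, Bsn, Pclo, Erc2, Unc13a, Unc13b, Ctbp2 and Rab3a, and the endocytic genes Synj1, Amph and Dnm1. All 40 had a row in the table and passed the filter on low counts. For the comparison of synapse types, 7 were listed as genes of ribbon synapses (Ctbp2, Stx3, Cplx3, Cplx4, Sv2b, Rims2 and Unc13b), 11 as genes of conventional synapses (Syn1, Syn2, Syn3, Synpr, Stx1a, Cplx1, Cplx2, Rims1, Unc13a, Rph3a and Sv2c), and 22 as shared or of other assignment.

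RNA-seq was performed on the retina of 12 C57BL/6J wildtype mice at postnatal day 18 (P18), 1 library per animal, to compare hyperoxia with room air and IC100 with placebo after hyperoxia. RA-PBS animals 1 to 4 were kept in room air and given placebo (PBS). O2-PBS animals 5 to 8 and O2-IC100 animals 9 to 12 were in 75% O2 for 5 days from P7, the mouse model of oxygen-induced retinopathy, were back in room air at P12, and received intraperitoneal PBS or IC100, a humanized antibody to ASC (a scaffold protein of inflammasomes), at 10 µg/g on P12, P14 and P16. Nothing in the sources used here says how the animals were divided among litters, so the p-values measure the spread between these animals only.

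A neuron releases transmitter when vesicles, docked at the active zone, fuse with the membrane as calcium enters. Vesicle and membrane SNARE proteins drive the fusion, complexins hold and synaptotagmins trigger it, RIM, Munc13, Bassoon and Piccolo organise the site, and endocytic proteins retrieve the membrane. In the retina, photoreceptors and bipolar cells release from ribbons, plate-like structures built of RIBEYE that tether many vesicles for sustained release and work with syntaxin 3 and complexins 3 and 4, while amacrine and ganglion cells use conventional synapses with synapsins, syntaxin 1 and complexins 1 and 2.

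The libraries held 14907143 to 24438082 counts. In O2-IC100 animal 10, 18 lens genes took 56.5% of all counts, so each comparison was made with all 12 animals and again with the 11 others. Among those 11, the summed lens level was 12300, 44600 and 14000 CPM in RA-PBS animals 2, 3 and 4 and between 5.7 and 121 CPM in the 8 remaining retinas. The summed level of 4 Y-linked genes was 246 to 362 CPM in animals 1, 2, 3, 8, 9, 11 and 12 and 4.47 to 10.9 CPM in animals 4, 5, 6, 7 and 10. Levels are CPM, the read count of a gene scaled to a common library total with TMM factors. The summed rod markers were 37800 to 45400 CPM in the 11 retinas and none of the marker genes for rods, cones, bipolar, amacrine, horizontal, ganglion or Müller cells was at 0 throughout.

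A promoter window is shown for each of 6 genes, the 3 that were lower in O2-PBS by at least 1.5-fold and 3 ribbon genes. The 3 ribbon genes were picked because a window of theirs holds the letters TAATCC. These letters are the core bound by photoreceptor homeodomain factors such as CRX. Rph3a has 3 windows, Synpr 2, Ctbp2 2 and Sv2b 4. Only windows with a marked motif were kept, and another Sv2b window with TAATCC is not shown. The windows are from RefSeq (GRCm38.p6), run 5′ to 3′ on the strand of the gene and cover 250 bases before and 50 after the annotated start. Capitals mark TAATCC of the homeodomain factors, the GC box GGGCGG of SP factors, and TGACG, the core of the cAMP response element, on either strand. No capital stretch is shared by 2 of these motifs.
Cplx1, chr5:108549978-108550277, minus strand: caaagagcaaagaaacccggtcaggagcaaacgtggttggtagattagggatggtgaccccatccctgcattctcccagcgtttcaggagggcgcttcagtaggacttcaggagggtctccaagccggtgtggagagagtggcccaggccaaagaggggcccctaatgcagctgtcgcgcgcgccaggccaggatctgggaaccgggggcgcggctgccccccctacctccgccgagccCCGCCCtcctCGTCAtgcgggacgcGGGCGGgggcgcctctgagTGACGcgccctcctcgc
Rph3a, chr5:121009489-121009788, minus strand: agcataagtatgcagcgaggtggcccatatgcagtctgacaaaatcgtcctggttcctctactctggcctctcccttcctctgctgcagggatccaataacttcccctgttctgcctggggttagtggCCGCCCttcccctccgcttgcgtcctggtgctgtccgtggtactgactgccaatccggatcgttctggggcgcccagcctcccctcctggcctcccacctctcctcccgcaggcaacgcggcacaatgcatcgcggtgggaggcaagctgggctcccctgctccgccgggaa
Synpr, chr14:13284530-13284829, plus strand: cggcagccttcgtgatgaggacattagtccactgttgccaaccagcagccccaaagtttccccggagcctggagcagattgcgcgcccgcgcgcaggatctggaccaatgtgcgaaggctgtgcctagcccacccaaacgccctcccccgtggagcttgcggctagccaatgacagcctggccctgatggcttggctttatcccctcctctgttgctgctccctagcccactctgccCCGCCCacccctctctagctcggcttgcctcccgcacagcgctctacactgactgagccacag
Ctbp2, chr7:133015198-133015497, minus strand: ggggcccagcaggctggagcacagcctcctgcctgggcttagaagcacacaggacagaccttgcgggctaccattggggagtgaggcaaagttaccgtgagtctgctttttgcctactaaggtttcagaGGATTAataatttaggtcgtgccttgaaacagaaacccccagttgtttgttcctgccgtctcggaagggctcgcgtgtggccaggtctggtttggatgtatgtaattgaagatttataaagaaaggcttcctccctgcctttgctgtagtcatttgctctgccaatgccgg
Stx3, chr19:11819354-11819653, minus strand: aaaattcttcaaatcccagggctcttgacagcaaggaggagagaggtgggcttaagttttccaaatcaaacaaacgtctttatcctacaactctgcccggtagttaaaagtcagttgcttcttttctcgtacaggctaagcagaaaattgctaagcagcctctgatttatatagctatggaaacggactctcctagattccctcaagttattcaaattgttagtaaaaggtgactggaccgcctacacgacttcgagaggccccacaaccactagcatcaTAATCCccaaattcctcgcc
Sv2b, chr7:75309213-75309512, minus strand: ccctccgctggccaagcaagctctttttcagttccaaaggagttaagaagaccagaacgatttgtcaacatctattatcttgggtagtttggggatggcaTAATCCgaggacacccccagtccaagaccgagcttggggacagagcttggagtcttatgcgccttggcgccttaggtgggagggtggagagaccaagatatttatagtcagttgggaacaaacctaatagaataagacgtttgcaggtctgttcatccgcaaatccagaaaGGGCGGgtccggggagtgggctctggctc

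RefSeq windows were matched for 32 of the 40 genes, 44 windows in all. TAATCC was found in 4 of the 9 windows of ribbon genes (44.4%), which belong to Ctbp2, Stx3 and Sv2b, and in 0 of the 14 windows of conventional genes. By gene this was 3 of 5 ribbon genes with a window and 0 of 10 conventional genes. The windows of the ribbon genes Cplx3 and Unc13b did not hold it. Of all 32851 windows 7.06% held it. TGACG was found in 4 of 14 conventional windows (28.6%, of Cplx1, Stx1a, Syn1 and Unc13a) and in 0 of 9 ribbon windows, against 20.8% of all windows. GGGCGG was in 57.1% of the conventional, 22.2% of the ribbon and 35.7% of all windows. These are matches of letters in short windows and the number of windows is small.

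Levels between genes were compared per kilobase of the longest transcript, as the RA-PBS mean. Snap25, the membrane SNARE of most synapses, had the highest level at 463 CPM per kb, followed by the vesicle protein synaptophysin (Syp) at 410, Vamp2 at 266, Stx3 at 251, Syt1 at 218 and Cplx4 at 205 CPM per kb. Syn3 (2.59), Syt2 (4.41) and Sv2c (5.48 CPM per kb) were lowest. Where a ribbon gene and a conventional gene are of 1 family, the ribbon gene was higher per kb in room air. The syntaxins were at 251 (Stx3) and 8.35 CPM per kb (Stx1a). The complexins were at 205 (Cplx4) and 100 (Cplx3) against 62.2 (Cplx1) and 54.6 CPM per kb (Cplx2). The RIM genes were at 57.2 (Rims2) and 21.6 (Rims1), and the Munc13 genes at 39.6 (Unc13b) and 19.8 CPM per kb (Unc13a). Sv2b was at 92.1 and Sv2c at 5.48 CPM per kb. Sv2a, which was listed with neither, was at 114 CPM per kb. A level per kb depends on the transcript taken as the length, and these levels were not tested against each other.

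**Figure D1:**
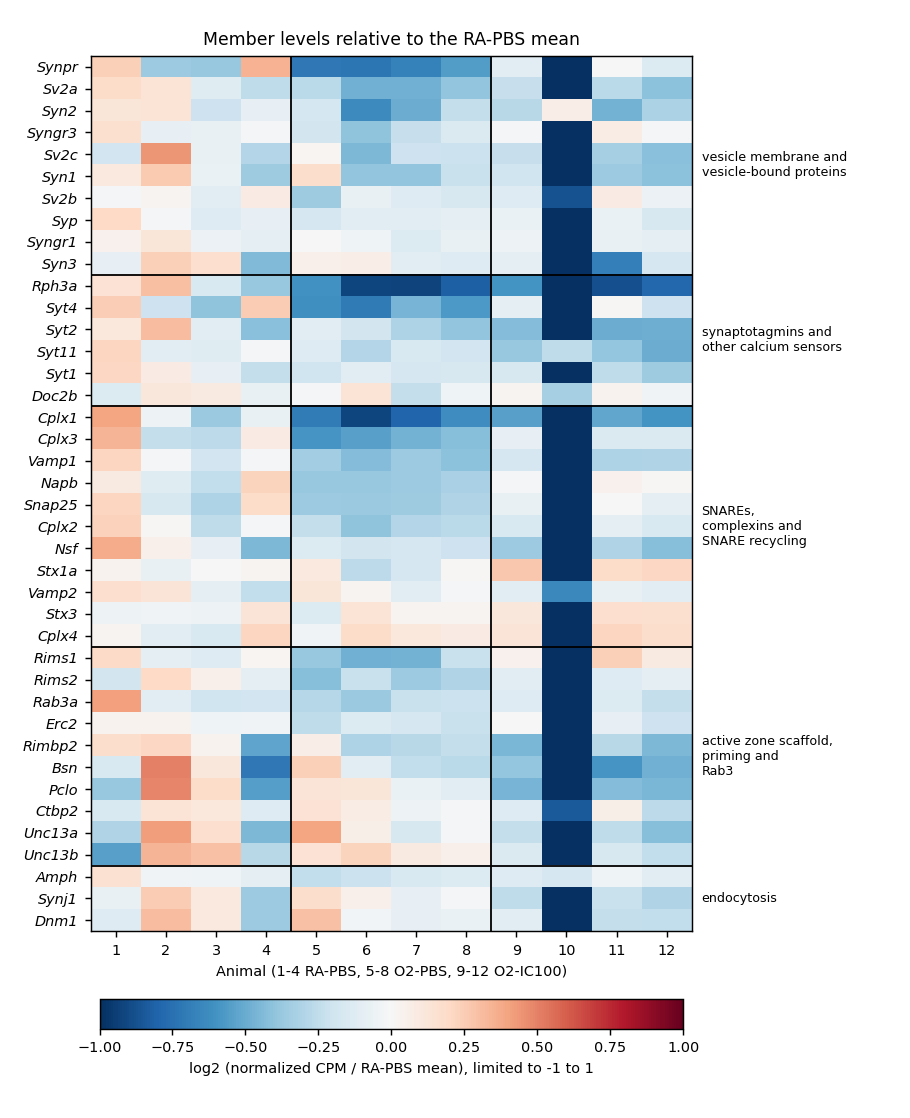
Level of each of the 40 genes (rows, by role) in each of the 12 retinas (columns), as log2 of CPM over the RA-PBS mean of that gene, with the colour scale limited to -1 to 1. Synpr, Rph3a, Syt4, Cplx1 and Cplx3 are blue in all 4 O2-PBS retinas, and O2-IC100 animal 10 stands apart in dark blue for most genes.

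O2-PBS was compared with RA-PBS to show what hyperoxia left in the retina at P18. Without animal 10, the 3 genes past the study's thresholds (fold change of at least 1.5, p under 0.05 and adjusted p under 0.1) were Rph3a, Cplx1 and Synpr, each lower in O2-PBS by 37.0 to 43.1% of its mean and each on the conventional list. Dropping the fold minimum, 13 of 40 genes (32.5%) were lower and 0 higher at an adjusted p under 0.1. Of all 16688 genes tested, 2.18% were lower and 4.09% higher by the full thresholds, and 6.42% lower and 6.00% higher by the adjusted p alone. The median log2 fold change was -0.19 over the 40 genes, 31 of them below 0. Over all genes it was -0.0066, with 51.2% below 0. In whole retina, fewer cells of a type and less RNA per cell cannot be told apart.

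Synaptoporin (Synpr), a relative of synaptophysin found on vesicles of some inner retinal synapses, had 246, 162, 160 and 265 CPM in RA-PBS animals 1 to 4 and 127, 126, 130 and 141 CPM in O2-PBS animals 5 to 8. The 4 O2-PBS retinas were all below the 4 of RA-PBS, and RA-PBS animals 1 and 4 stood above animals 2 and 3. The log2 fold change was -0.67 ± 0.15 (SE, adjusted p = 0.014, edgeR with Benjamini-Hochberg adjustment).

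Among the other vesicle genes, synapsin II (Syn2), which ties vesicles to the reserve pool, was at 49.7, 50.1, 39.6 and 43.0 CPM in RA-PBS and 40.3, 29.4, 32.4 and 38.7 CPM in O2-PBS. Animal 5 overlapped with RA-PBS (log2 fold change -0.37 ± 0.11, adjusted p = 0.062). Sv2a, the most widespread of the SV2 vesicle glycoproteins, fell from 494 ± 69.8 to 373 ± 26.5 CPM (SD, n = 4 each, log2 fold change -0.40 ± 0.10, adjusted p = 0.030), with no overlap. Syn1 and Syn3, also synapsins, did not pass. Syn1 had 105, 118, 93.8 and 76.8 CPM in RA-PBS and 111, 74.6, 74.6 and 84.4 CPM in O2-PBS. Syn3 had 9.81, 12.3, 11.7 and 7.65 CPM in RA-PBS and 10.8, 10.9, 9.69 and 9.49 CPM in O2-PBS. The groups overlapped for both, and O2-PBS animal 5 was the highest of its group for Syn1. Sv2c, the SV2 gene of a few neuron types, had 43.6, 67.7, 47.4 and 40.8 CPM against 50.7, 36.6, 43.3 and 43.0 CPM, with RA-PBS animal 2 highest. Sv2b, the SV2 gene of ribbon terminals, had 505, 518, 474 and 539 CPM against 397, 483, 466 and 456 CPM, where only animal 6 overlapped with RA-PBS (log2 fold change -0.18 ± 0.09, adjusted p = 0.27). All 10 vesicle genes had a negative log2 fold change, from -0.67 to -0.02, and 3 passed at an adjusted p under 0.1. Those that did not include Syp, Syngr1 and Syngr3.

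Rabphilin (Rph3a), a Rab3 effector that binds calcium through C2 domains, had the most negative value of the 40 genes. It was at 258, 288, 211 and 180 CPM in RA-PBS and 154, 124, 123 and 133 CPM in O2-PBS, with no overlap. The log2 fold change was -0.81 ± 0.13 (adjusted p = 0.0028). Syt4, a synaptotagmin of vesicles and dense cores, was at 177, 129, 113 and 178 CPM in RA-PBS and 97.4, 91.5, 108 and 100 CPM in O2-PBS. The groups did not overlap, though animals 3 and 7 were close (log2 fold change -0.58 ± 0.13, adjusted p = 0.016). Syt1 and Syt2, the fast calcium sensors, Syt11 and Doc2b had log2 fold changes of -0.16, -0.24, -0.19 and -0.04 and did not pass.

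Of the 11 SNARE, complexin and recycling genes, 6 were lower at an adjusted p under 0.1. Complexin 1 (Cplx1), which clamps and promotes fusion at conventional synapses, had 179, 131, 105 and 129 CPM in RA-PBS and 83.9, 72.0, 78.6 and 88.6 CPM in O2-PBS. All 4 O2-PBS values lay below the lowest of RA-PBS (log2 fold change -0.75 ± 0.13, adjusted p = 0.0034). Complexin 2 (Cplx2) had 315, 271, 226 and 265 CPM against 228, 203, 219 and 223 CPM. Here animal 5 was above animal 3, so the groups overlapped by 1 retina (log2 fold change -0.30 ± 0.09, adjusted p = 0.066).

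Complexin 3 (Cplx3), a complexin of ribbon synapses that is also made by some amacrine cells, had 362, 243, 238 and 303 CPM in RA-PBS and 190, 196, 206 and 213 CPM in O2-PBS. The groups were separate (log2 fold change -0.51 ± 0.12, adjusted p = 0.018). Complexin 4 (Cplx4), the photoreceptor complexin, had 378, 344, 334 and 430 CPM against 363, 422, 399 and 393 CPM. The groups overlapped and its log2 fold change was 0.09 ± 0.09 (adjusted p = 0.64), and the difference between these paralogs was not tested.

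The syntaxins did not pass. Stx3, the syntaxin of ribbon terminals, had 681, 686, 679 and 771 CPM in RA-PBS and 642, 772, 717 and 717 CPM in O2-PBS (log2 fold change 0.02 ± 0.08). Stx1a, the syntaxin of conventional terminals, had 18.5, 17.2, 18.1 and 18.4 CPM against 19.4, 15.1, 16.1 and 18.2 CPM (log2 fold change -0.07 ± 0.10). Their groups overlapped. The other 3 genes that passed were Vamp1, a vesicle SNARE (106 ± 12.5 against 81.0 ± 2.22 CPM, adjusted p = 0.013), Snap25 (980 ± 171 against 772 ± 17.0 CPM, adjusted p = 0.074) and Napb, the brain SNAP that recruits the ATPase NSF to used SNARE complexes (376 ± 54.5 against 293 ± 5.3 CPM, adjusted p = 0.037). Vamp2 and Nsf had log2 fold changes of 0.01 and -0.17.

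At the active zone, the RIM genes, whose proteins tether calcium channels and vesicles, passed and the scaffolds did not. Rims1 had 159, 130, 127 and 141 CPM in RA-PBS and 107, 99.4, 100 and 119 CPM in O2-PBS (log2 fold change -0.39 ± 0.09, adjusted p = 0.019). Rims2, the RIM of photoreceptor ribbons, had 241, 315, 284 and 258 CPM against 204, 235, 213 and 223 CPM (log2 fold change -0.33 ± 0.09, adjusted p = 0.040). Neither gene overlapped between the groups.

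Ctbp2, the gene of RIBEYE, had 246, 302, 295 and 251 CPM in RA-PBS and 303, 288, 265 and 270 CPM in O2-PBS, a log2 fold change of 0.04 ± 0.10. Counts per gene do not separate RIBEYE from the nuclear protein CtBP2 that the same gene encodes. The priming factors Unc13b (402, 739, 715 and 483 CPM against 646, 684, 624 and 605 CPM) and Unc13a (165, 271, 228 and 149 CPM against 267, 211, 182 and 200 CPM) varied more within RA-PBS than between the groups. The same held for Bassoon (Bsn), at 177, 279, 213 and 120 CPM against 233, 183, 166 and 163 CPM. For these 3 genes RA-PBS animals 2 and 3 were the highest of their group. Piccolo (Pclo), Erc2, Rimbp2 and Rab3a had log2 fold changes of 0.02, -0.19, -0.18 and -0.27, and the endocytic genes Amph, Synj1 and Dnm1 of -0.19, 0.03 and 0.04. None of these 7 passed.

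**Figure D2:**
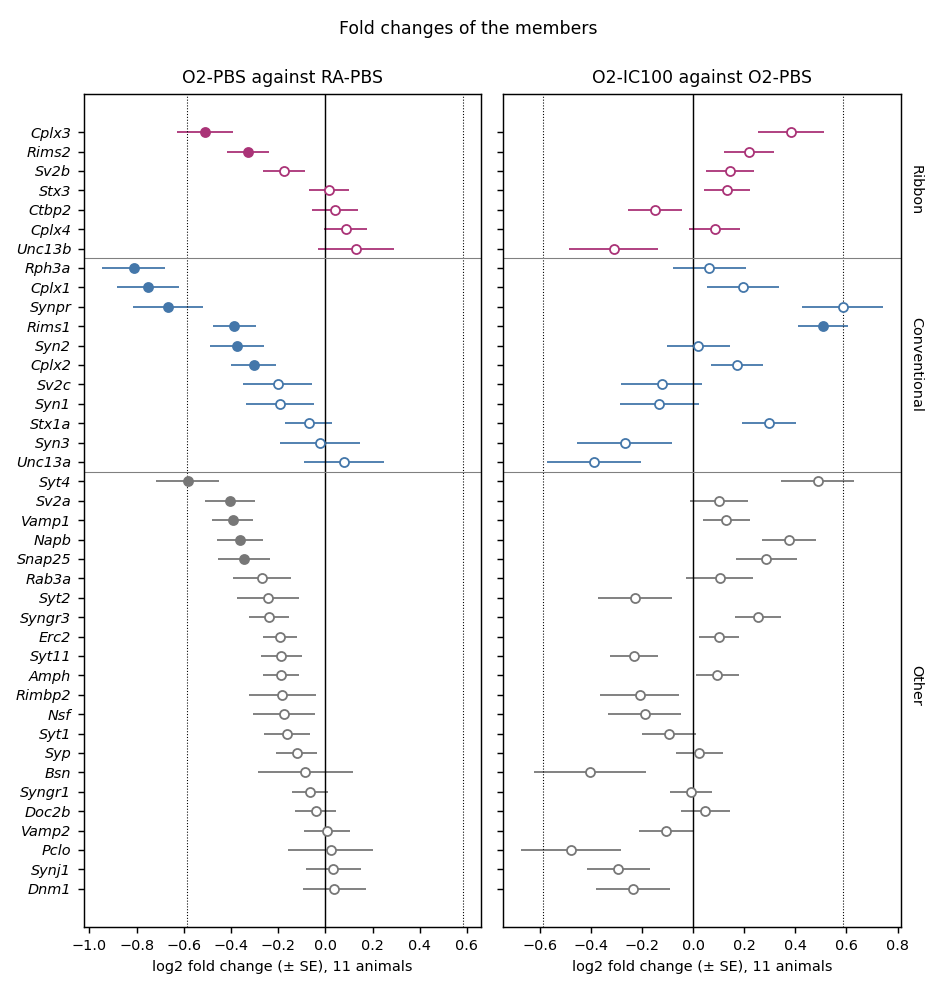
Log2 fold change (± SE) of each of the 40 genes without animal 10, for O2-PBS against RA-PBS and O2-IC100 against O2-PBS, grouped as ribbon, conventional and other genes. Filled points have an adjusted p under 0.1 and dotted lines mark a fold change of 1.5; 13 points are filled on the left, all below 0, and 1 on the right, Rims1.

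Set side by side, 2 of 7 ribbon genes (28.6%, Cplx3 and Rims2), 6 of 11 conventional genes (54.5%, Syn2, Synpr, Cplx1, Cplx2, Rims1 and Rph3a) and 5 of 22 others (Syt4, Sv2a, Vamp1, Snap25 and Napb) were lower in O2-PBS at an adjusted p under 0.1. The median log2 fold change was 0.02 over the ribbon, -0.30 over the conventional and -0.18 over the other genes. The ribbon median changed sign among the other fits, from -0.02 with the Y-linked level as a covariate or without O2-PBS animal 6 to 0.09 with the lens level as a covariate. The conventional median was -0.54 with the lens covariate and lay between -0.26 and -0.38 in the other fits. With all 12 animals the medians were again 0.02 and -0.30, and the lens covariate took them to -0.47 and -0.84. The lists are short and the difference between them was not tested. Of the 13 genes, Cplx1, Rph3a, Synpr, Cplx3, Syt4, Napb, Vamp1 and Rims1 kept an adjusted p under 0.1 in all 21 other fits, while Snap25 lost it in 10, Cplx2 in 9, Syn2 in 6, Rims2 in 4 and Sv2a in 2. The count of 13 was 8 without O2-PBS animal 7 and at most 16 when another retina was left out. By values alone, 15 of the 40 genes (37.5%) had every O2-PBS retina below every RA-PBS retina and 0 had every one above, where 6.48% and 7.86% of all genes did so. The 15 were Cplx3 and Rims2 of the ribbon list, Synpr, Cplx1, Rims1 and Rph3a of the conventional list, and Syngr3, Syt4, Syt11, Vamp1, Sv2a, Erc2, Rab3a, Napb and Amph.

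Markers of retinal cell types were counted by the same rule, by which 6.42% of all genes were lower and 6.00% higher. In most lists the majority of markers did not pass. The summed amacrine markers were 1410 to 2080 CPM in RA-PBS and 1220 to 1390 CPM in O2-PBS, and 3 of 8 (Gad1, Slc6a9 and Calb2) were lower at an adjusted p under 0.1. The summed ganglion cell markers were 880 to 1290 against 710 to 758 CPM, with 3 of 6 lower (Nefl, Nefm and Thy1). Nefl had the mean levels 597 and 388 CPM and made up much of the sum. Rbpms (29.5 against 30.1 CPM), Pou4f1 (32.9 against 29.0 CPM) and Pou4f2 (9.39 against 9.02 CPM) did not pass. The horizontal cell markers were 119 to 186 against 89.8 to 105 CPM, with 1 of 4 lower (Calb1, mean 113 against 71.4 CPM). Onecut1 (8.87 against 8.77 CPM), Onecut2 and Lhx1 did not pass. Bipolar markers were 1500 to 1930 against 1420 to 1660 CPM with 3 of 8 lower, and Müller glia markers 3110 to 4730 against 2530 to 2890 CPM with 4 of 5 lower. Cone markers were 1060 to 1290 against 1080 to 1330 CPM, with 1 of 8 higher (Pde6c) and 1 lower (Arr3). Rod markers were 37800 to 44700 against 38300 to 45400 CPM and 0 of 8 passed in either direction. The part of these cell types in the values of the presynaptic genes was not tested. With the lens level as a covariate 19 of the 40 genes were lower and 1 higher, and with the Y-linked level as a covariate 9 were lower.

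With all 12 animals, 0 of 40 genes passed at an adjusted p under 0.1 (edgeR, 4 lower and 0 higher at an unadjusted p under 0.05), and DESeq2 and limma voom also gave 0. Of all 16489 genes tested, 0.782% were higher and 0.0303% lower. The fold changes hardly moved, with a median log2 of -0.19 in both fits, while the error grew. The SE of Cplx1 was 0.27 with 12 and 0.13 with 11 animals, and that of Synpr 0.55 and 0.15.

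In the wider release machinery, most genes did not pass without animal 10, and more of those that did were lower than higher. Over all genes, 6.42% were lower and 6.00% higher at an adjusted p under 0.1. Of 45 further fusion and active zone genes, 11 were lower and 1 higher (Syngr2) by this rule, with a median log2 fold change of -0.11 and 11 genes above 0. Rab3c, a Rab3 of vesicles, was at 142 ± 9.40 CPM in RA-PBS and 86.6 ± 2.70 CPM in O2-PBS (SD, n = 4 each), a log2 fold change of -0.71 (adjusted p = 8.48e-05). Syt10 (-0.85), a further synaptotagmin, was also lower by at least 1.5-fold. Of 16 presynaptic calcium channel genes and regulators 3 were lower, with Cacna2d3, an accessory alpha2delta subunit, at 79.3 ± 7.75 against 45.5 ± 3.28 CPM (log2 fold change -0.80, adjusted p = 0.00024) and the beta subunit Cacnb4 at 54.6 ± 8.91 against 34.3 ± 2.86 CPM (-0.67). Of 7 vesicular transporters 3 were lower, with Slc6a17, an amino acid transporter of vesicles, past the fold minimum (-0.61). Of 23 vesicle retrieval genes 4 were lower, with Synj2 past the fold minimum (-0.61).

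O2-IC100 was compared with O2-PBS to show the response to the antibody after hyperoxia. Without animal 10, 0 of 40 genes passed the full thresholds (edgeR, 9 higher and 3 lower at an unadjusted p under 0.05). Rims1 alone passed at an adjusted p under 0.1 and was higher. Of all genes, 0.216% were higher and 0.731% lower by the full thresholds, and 0.461% and 0.851% by the adjusted p alone. DESeq2 gave 5 higher and 1 lower, limma voom 1 higher and 0 lower. The median log2 fold change was 0.06 over the 40 genes, 0.13 over the ribbon and 0.06 over the conventional genes, against 0.004 over all genes. The conventional median turned to -0.09 with the Y-linked level as a covariate and to -0.02 without animal 9, and was 0.13 without animal 5 or 11 and 0.19 with the length and GC correction. The ribbon median lay between 0.07 and 0.18 in the other fits. With all 12 animals the ribbon and conventional medians were -0.14 and -0.09.

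Rims1 was at 143, 164 and 148 CPM in O2-IC100 animals 9, 11 and 12, all above the 4 O2-PBS retinas, which lay between 99.4 and 119 CPM. The log2 fold change was 0.51 ± 0.10 (adjusted p = 0.045). It lost the threshold in 7 of 21 other fits, 6 of which left out 1 retina (animal 5, 6, 7, 9, 11 or 12), and its log2 fold change over the 21 ran from 0.44 to 0.63. In animal 10 Rims1 was at 28.0 CPM.

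The difference of Synpr was larger than that of Rims1 and that of Syt4 the next in size, and neither passed. Synpr was at 192, 209 and 189 CPM in animals 9, 11 and 12, above all O2-PBS retinas and inside the range of RA-PBS (log2 fold change 0.58 ± 0.16, adjusted p = 0.12). Syt4 was at 139, 150 and 129 CPM, again above O2-PBS and inside the RA-PBS range (0.49 ± 0.14, adjusted p = 0.14). In animal 10 they were at 14.7 and 10.9 CPM. This comparison and that with room air share the O2-PBS retinas, so a low O2-PBS value enters both.

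Of the ribbon genes, Cplx3 was at 270, 259 and 259 CPM (log2 fold change 0.38 ± 0.13, adjusted p = 0.17) and Rims2 at 255, 250 and 258 CPM (0.22 ± 0.10). Both were above all O2-PBS retinas. Stx3 (762, 793 and 788 CPM), Cplx4 (405, 430 and 418 CPM) and Sv2b (466, 539 and 488 CPM) overlapped with O2-PBS, with log2 fold changes of 0.13, 0.08 and 0.14. Ctbp2 (250, 285 and 228 CPM) overlapped too, at -0.15. Unc13b (530, 524 and 494 CPM) was below all O2-PBS retinas, at -0.31 ± 0.17.

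Of the conventional genes, Cplx1 (93.1, 94.7 and 89.8 CPM) lay just above all O2-PBS retinas and Rph3a (155, 127 and 136 CPM) overlapped with them, with log2 fold changes of 0.20 ± 0.14 and 0.06 ± 0.14. Cplx2 (242, 253 and 242 CPM) and Stx1a (21.8, 20.6 and 20.9 CPM) lay above all O2-PBS retinas, at 0.17 ± 0.10 and 0.30 ± 0.11, and did not pass. Unc13a (172, 170 and 151 CPM) lay below them, at -0.39 ± 0.18. Syn1 (85.6, 76.4 and 73.8 CPM), Syn2 (37.7, 32.8 and 36.6 CPM), Syn3 (9.79, 6.49 and 9.25 CPM) and Sv2c (42.5, 39.7 and 37.3 CPM) had log2 fold changes of -0.13, 0.02, -0.27 and -0.12. For these 4 genes the values of the groups overlapped.

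In all, 22 genes (55.0%) had no overlap between the 3 O2-IC100 and the 4 O2-PBS retinas, as did 35.4% of all genes. In 13 of them (32.5%) O2-IC100 was above, against 19.4% of all genes, and in 9 (22.5%) below. The rest of the 35.4% of all genes was below too. The 13 included Snap25, Napb, Vamp1, Syngr3 and Amph beside those named. The 9 were Unc13b, Unc13a, Syt2, Syt11, Bsn, Pclo, Nsf, Synj1 and Dnm1. Within RA-PBS, Unc13b, Unc13a, Bsn, Pclo, Synj1 and Dnm1 also had animals 2 and 3 above animals 1 and 4, while Syt11 had the reverse. Of the genes above O2-PBS, Cplx3, Synpr, Stx1a, Rims1, Syngr3, Syt4, Snap25 and Napb had the reverse split, and Rims2 the first. The part of this split among room air retinas in the IC100 comparison was not tested. Of the wider machinery, Rab3c was higher (118 ± 1.95 CPM, SD, n = 3, log2 fold change 0.45, adjusted p = 0.030), as was the liprin gene Ppfia2 (129 ± 2.42 against 99.1 ± 6.13 CPM, 0.38, adjusted p = 0.099), and none passed the fold minimum. The summed ganglion cell markers were 850 to 903 CPM and the amacrine markers 1300 to 1390 CPM in these 3 retinas. All 3 were in the high range of the Y-linked genes, against 1 of 4 in O2-PBS, and with that level as a covariate 0 of the 40 genes passed.

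**Figure D3:**
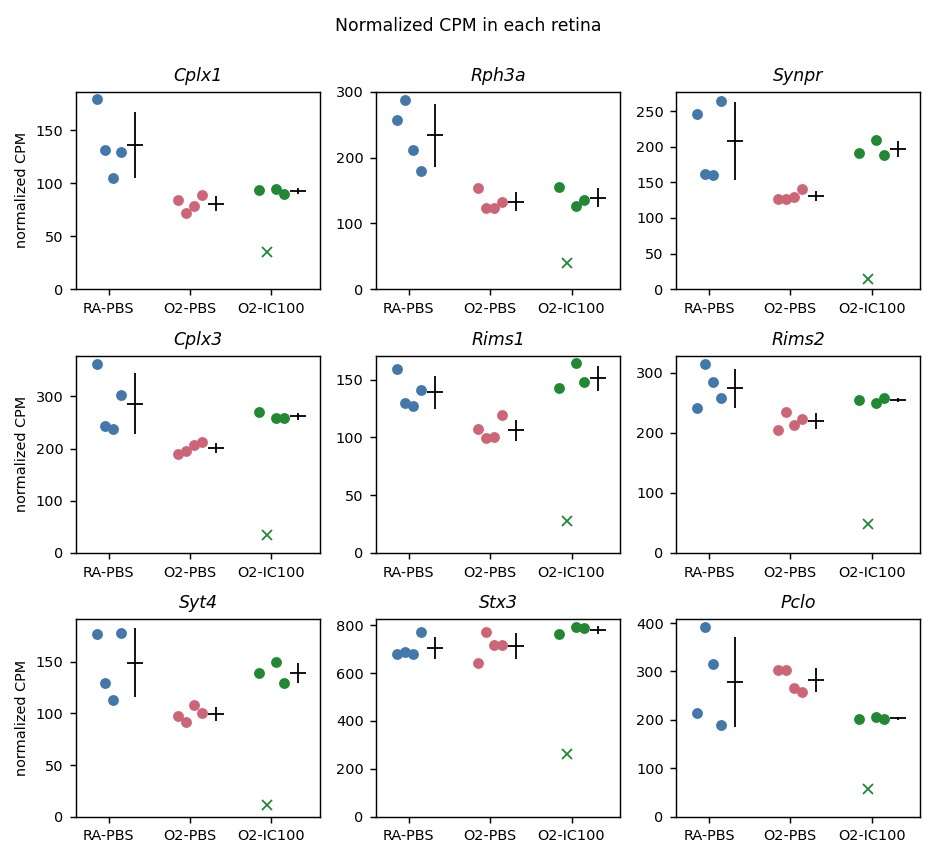
CPM of 9 of the genes in each retina (points), with the mean ± SD of each group beside them, where O2-IC100 animal 10 is a cross and is left out of the mean. O2-PBS points lie below all RA-PBS points for Cplx1, Rph3a, Synpr, Cplx3, Rims1, Rims2 and Syt4, and overlap with them for Stx3 and Pclo.

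With all 12 animals, 0 of 40 genes passed between O2-IC100 and O2-PBS (edgeR, 0 at an unadjusted p under 0.05), and 0% of all genes passed in either direction. DESeq2 and limma voom gave 0 as well. The median log2 fold change over the 40 genes was then -0.21, with 32 below 0, in place of 0.06. Over all genes it was 0.0037, with 49.5% below 0.

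O2-IC100 was also set against RA-PBS. Without animal 10, Rph3a was lower by the full thresholds (log2 fold change -0.75 ± 0.15, adjusted p = 0.040), and Cplx1 (-0.56 ± 0.14, adjusted p = 0.082) and Syt11 (-0.42 ± 0.09, adjusted p = 0.061) by the adjusted p alone. The 3 O2-IC100 values of Rph3a, Cplx1 and Syt11 lay below all 4 RA-PBS values. Syt11 was at 194, 193 and 179 CPM in O2-IC100 and at 292, 234, 232 and 249 CPM in RA-PBS. Rph3a lost the adjusted p threshold in 3 of 21 other fits, without O2-IC100 animal 11 or 12 and with only the 2 groups compared. Cplx1 lost it in 9, limma voom among them, and Syt11 in 7, the length and GC correction among them. The count of 3 genes ran from 0 without animal 11 to 14 without RA-PBS animal 4. Of all genes, 0.617% were lower and 0.947% higher by the full thresholds, and 1.31% and 1.22% by the adjusted p alone. Bsn, with the third most negative value (-0.49 ± 0.22, adjusted p = 0.31), was at 151, 131 and 141 CPM, within the RA-PBS range of 120 to 279 CPM. The median log2 fold change was -0.15 over the 40 genes, -0.11 over the ribbon and -0.31 over the conventional genes. The ribbon median turned to 0.05 with the lens level as a covariate, was -0.02 with the length and GC correction, and lay at -0.03 or -0.04 without RA-PBS animal 1 or 2 or O2-IC100 animal 12. The conventional median was -0.19 without RA-PBS animal 2 and between -0.20 and -0.41 in the other fits.

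With all 12 animals 0 of 40 genes passed (edgeR, 6 lower and 0 higher at an unadjusted p under 0.05) and 0% of all genes did in either direction. DESeq2 gave 2 lower and limma voom 0. The log2 fold changes of all 40 genes were below 0, with a median of -0.45 in place of -0.15 without animal 10. Over all genes the median was 0.0182, with 47.9% below 0.

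In animal 10 itself, the 40 genes stood at a median of 0.323 of the mean of animals 9, 11 and 12, and 30 were under 0.5. Over all genes the median was 0.923 and 27.7% were under 0.5. Synpr (0.0752) and Syt4 (0.0788) were lowest, while Syn2 (1.35) and Syt11 (1.13) were above 1. The ribbon and conventional genes had medians of 0.339 and 0.364. Of the marker lists of retinal neurons, rods were at 10800 CPM in animal 10 against 39400 to 43400 CPM in animals 9, 11 and 12, cones at 133 against 1260 to 1380, amacrine cells at 571 against 1300 to 1390, ganglion cells at 213 against 850 to 903 and horizontal cells at 15.9 against 123 to 131 CPM. The bipolar sum was 1280 against 1440 to 1460 CPM, much nearer to the other 3 retinas, but a sum rests mostly on its highest genes. The median log2 fold change of bipolar markers between O2-IC100 and O2-PBS was 0.11 without animal 10 and -0.21 with it. For cone markers these medians were 0.2 and -0.18. Pigment epithelium markers summed to 3230 CPM in animal 10 against 76.5 to 80.3 CPM. Müller glia markers were also higher there, at 5700 against 3040 to 3280 CPM, as were blood markers, at 9000 against 108 to 142 CPM. The part of these cell types in the values of the presynaptic genes was not tested.

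**Figure D4:**
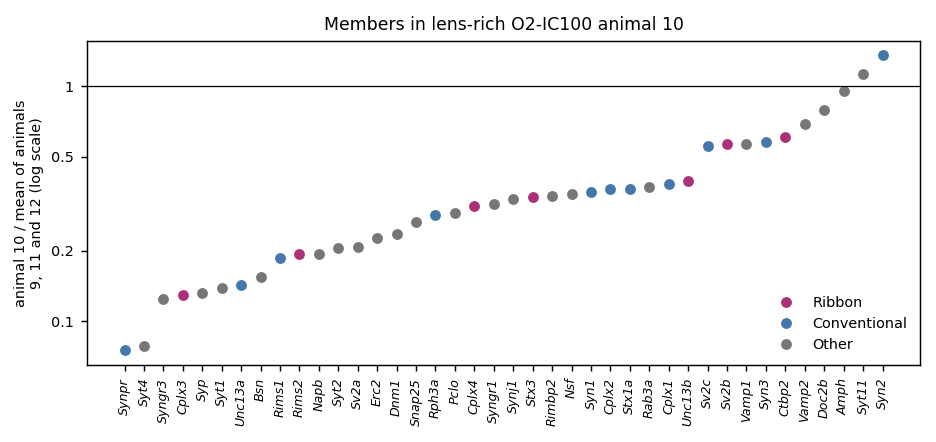
Ratio of O2-IC100 animal 10 to the mean of animals 9, 11 and 12 for each of the 40 genes, on a log axis, by synapse list. The points run from 0.0752 (Synpr) to 1.35 (Syn2), and 30 lie under 0.5.

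The spread within groups was widest in RA-PBS. The median coefficient of variation over the 40 genes was 14.3% in RA-PBS, 7.08% in O2-PBS and 4.22% in O2-IC100 without animal 10, where the medians over all genes were 18.5%, 9.3% and 8.11%. In 11 of the 40 genes RA-PBS animals 2 and 3 were both above animals 1 and 4 (Ctbp2, Rims2, Unc13b, Syn3, Unc13a, Sv2c, Bsn, Pclo, Doc2b, Synj1 and Dnm1), a split shown by 26.5% of all genes. In 10 the order was the reverse (Cplx3, Cplx4, Synpr, Stx1a, Rims1, Syngr3, Syt4, Syt11, Snap25 and Napb), as in 30.7% of all genes. The median transcript length of the first set was 4361 bases and of the second 2262 bases, and over all genes with those splits 2914.5 and 1647.75 bases. The lens level was high in RA-PBS animals 2, 3 and 4 and the Y-linked level in animals 1, 2 and 3, and their part in the split was not tested.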

How the data were processed

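Retinal RNA of 12 mice was sequenced after poly(A) selection as paired 150 bp reads. The authors estimated counts with Kallisto on GRCm39 (Ensembl 104) and summed them per gene with tximport, and the deposited values are these expected counts, 42.0% of them not whole. Versions are not given in the sources used here. Totals were 14907143 to 24438082 counts per library. The submitters' processing notes also name DESeq2.

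Here expected counts were rounded, filtered by filterByExpr and tested with edgeR 4.0.16 (TMM, robust quasi-likelihood F test, two-sided, all 3 groups in 1 fit, Benjamini-Hochberg over all genes tested) in R 4.3.3, with all 12 animals (16489 genes) and without O2-IC100 animal 10 (16688 genes). Calls used the thresholds of the study, a fold change of 1.5, p under 0.05 and adjusted p under 0.1. Printed CPM use the scaling of 11 animals, and those of animal 10 were multiplied by 1.11, the mean ratio of the scalings. Means and SDs leave animal 10 out. The test was run on data simulated for the 11 animals, with fold changes of at least 1.5. That does not cover the fit of 12 animals or smaller changes.

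Alternatives were DESeq2 1.42.0, limma voom 3.58.1, RLE factors, lens genes left out of the scaling, other filters, the Y-linked or lens level as covariate, correction for transcript length and GC content, only the 2 groups compared, and each animal left out in turn. Symbols were matched for 35374 of 36131 genes. Lengths are of GENCODE M21 (GRCm38), promoters of RefSeq (GRCm38.p6). The genes and lists were chosen with earlier results of these data known, and the synapse lists and roles from textbook knowledge. Values in every animal are given for the ribbon and conventional genes, for genes past the thresholds and for the 3 largest changes of each comparison. 1 gene of the wider machinery is not reported here and was left out of its counts. Of the others, genes past the thresholds are named, and Syngr2, Rab3c and Ppfia2 in the IC100 comparison were named after their values were seen.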

Additional observations from a re-analysis of the deposited data

Results flagged for a closer look

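In 120 groups of 4 retinas (40 genes in 3 groups), 1 retina stood far from the other 3 in 33 cases, where chance flags about 1 in 20 groups. In 29 of the 33 it was O2-IC100 animal 10, which was lowest. These 29 cases come from 1 library, so they are not independent of each other. In this library the levels were 262 (Stx3), 34 (Cplx3), 129 (Cplx4), 48.8 (Rims2), 202 (Unc13b), 14.7 (Synpr), 7.69 (Stx1a), 35.2 (Cplx1), 88.9 (Cplx2) and 28 (Rims1) CPM. Further values were 23.1 (Unc13a), 130 (Syp), 114 (Syngr1), 5.59 (Syngr3), 120 (Syt1), 4.47 (Syt2), 10.9 (Syt4), 248 (Snap25), 375 (Vamp2) and 82.2 (Sv2a) CPM. The remaining values were 15.9 (Rimbp2), 21.5 (Bsn), 58.2 (Pclo), 9.93 (Erc2), 86.6 (Rab3a), 161 (Nsf), 72.9 (Napb), 73.3 (Synj1) and 133 (Dnm1) CPM. Animals 9, 11 and 12 lay close together for these genes, and 56.5% of the counts of animal 10 came from lens genes.

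The other 4 cases were in the remaining groups. Rab3a, the vesicle GTPase, was at 348 CPM in RA-PBS animal 1 against 228 to 242 CPM in animals 2 to 4. Stx3 was at 771 CPM in RA-PBS animal 4 against 679 to 686 CPM. Dnm1, the dynamin of synaptic endocytosis, was at 801 CPM and Rimbp2, a RIM-binding protein, at 64.9 CPM in O2-PBS animal 5, against 620 to 642 and 49.9 to 52.4 CPM in animals 6 to 8.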

How the results depend on the processing

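Without animal 10, most alternatives left the counts of genes for O2-PBS against RA-PBS within 1.5 times of the reported ones. The counts by the adjusted p in the 2 comparisons of O2-IC100 were less stable. Of the 11 fits that left out 1 animal, 10 moved the count of 1 gene higher than in O2-PBS beyond that range. The count of 3 genes lower than in RA-PBS moved beyond it in 6. Also without animal 10, no alternative changed the sign of the fold changes that passed at an adjusted p under 0.1 (13, 1 and 3 genes in the 3 comparisons). The alternatives were not compared for the other single genes. Medians over the 40, ribbon and conventional genes did change sign under some alternatives, and those of the 2 lists are given beside their values. For O2-PBS against RA-PBS, the lens level as a covariate gave 9 genes lower and 1 higher past the full thresholds, 1 higher by the adjusted p and a median log2 fold change of -0.32. Leaving out 1 animal gave 8 to 16 genes lower by the adjusted p. For O2-IC100 against O2-PBS, the lens covariate and the length and GC correction each gave 1 gene higher past the full thresholds. By the adjusted p, DESeq2 gave 5 higher and 1 lower, the 2 groups alone 11 higher and 10 lower, the lens covariate 7 higher and the Y-linked covariate 0 higher, with a median of -0.03. Leaving out 1 animal gave 0 to 7 higher and 0 to 2 lower. For O2-IC100 against RA-PBS, the genes lower past the full thresholds were 2 with the Y-linked covariate, 4 with the lens covariate, 0 with the 2 groups alone and 0 to 3 leaving out 1 animal. By the adjusted p they were 7 with DESeq2, 12 with the lens covariate (median -0.22), 0 with the 2 groups alone and 0 to 14 leaving out 1 animal, when 0 to 1 were higher.

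With all 12 animals, O2-PBS against RA-PBS gave 15 genes lower by either rule with the lens covariate (median -0.77), and 4 past the full thresholds and 10 by the adjusted p with the 2 groups alone. O2-IC100 against O2-PBS gave 14 and 17 lower with the Y-linked covariate. O2-IC100 against RA-PBS gave 1 and 2 with DESeq2, and 27 and 28 with the lens covariate. Leaving out 1 animal gave 0 to 3 lower past the full thresholds and 0 to 13 by the adjusted p for O2-PBS against RA-PBS, 0 to 1 higher for O2-IC100 against O2-PBS, and 0 to 1 and 0 to 3 lower for O2-IC100 against RA-PBS, each changed only by leaving out animal 10. The covariates differ between the groups, so their fits cannot separate a covariate from the group difference, which can shrink or grow. The cause of the shifts was not tested. No paired analysis was possible because each animal has its own number, 1 to 12, and the groups share none.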

Other observations

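Genes of the wider release machinery that were lower in O2-PBS than in RA-PBS at an adjusted p under 0.1 (edgeR, without animal 10) but by less than 1.5-fold were named after their values were seen. Priming and dense core vesicle genes were among them, with Unc13c, a further Munc13, at 81.4 ± 7.15 against 58.7 ± 6.18 CPM (SD, n = 4 each, log2 fold change -0.47, adjusted p = 0.0063) and Cadps at 377 ± 50.2 against 280 ± 15.8 CPM (-0.43, adjusted p = 0.015). Cadps2 (-0.49), Syt3 (-0.46), Syt13 (-0.42), Snap47 (-0.41), Syt9 (-0.33), Ppfia2 (-0.32) and Rims4 (-0.29) were also lower on the log2 scale. Of retrieval genes, endophilin A1 (Sh3gl2) was at 251 ± 33.7 against 191 ± 9.10 CPM (-0.40), and Eps15 (-0.41) and Cltb (-0.29) fell as well.

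The vesicular glutamate transporter of ganglion cells, Slc17a6, was at 82.1 ± 15.0 CPM in RA-PBS, 57.4 ± 4.72 CPM in O2-PBS and 81.2 ± 2.52 CPM in O2-IC100 animals 9, 11 and 12. Its log2 fold change was -0.52 against RA-PBS (adjusted p = 0.015) and 0.50 between O2-IC100 and O2-PBS (adjusted p = 0.10). Slc17a8, the transporter of glutamatergic amacrine cells, was at 26.0 ± 2.68, 19.4 ± 1.83 and 18.6 ± 1.26 CPM in the same order, with log2 fold changes of -0.42 (adjusted p = 0.028) and -0.06 (adjusted p = 0.78). Cabp1, a calcium-binding regulator of channels, followed with 149 ± 17.5, 109 ± 10.3 and 112 ± 7.88 CPM. The comparisons share the O2-PBS retinas, and the differences between these genes were not tested.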
